A study of Mus musculus with 18 samples.

Results

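The proteasome genes of mouse liver were followed in 10 A226Y mice and 8 wild-type (WT) mice by RNA-Seq. The members were the genes whose symbols name the constitutive 26S proteasome and its partners: 7 alpha subunits (*Psma1* to *Psma7*) and 7 beta subunits (*Psmb1* to *Psmb7*) of the 20S core, 6 ATPases (*Psmc1* to *Psmc6*) and 14 non-ATPase genes (*Psmd1* to *Psmd14*) of the 19S cap, and *Psme3*, *Psme4* and *Psmf1*. All 37 were among the 22524 genes counted, and all 37 were among the 13353 genes with enough counts to be tested. The mice were female C57BL/6 animals of 15 months, with 1 liver library each. A226Y mice carried 1 *Rps2*-A226Y knock-in allele and 1 normal *Rps2* allele, and the controls were wild-type mice that expressed Cre recombinase. The allele was made in 129/Sv embryonic stem cells, was crossed back to C57BL/6, and is held silent by a loxP-STOP-loxP cassette until Cre, driven everywhere by the CMV promoter, removes it. Excision was incomplete, so each A226Y liver was a mosaic of cells with the mutant allele and cells with a silent allele and a single working copy of *Rps2*. In bulk liver, fewer cells of a type and less RNA per cell cannot be told apart.

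The 20S core is a barrel of stacked alpha and beta rings that encloses the cutting sites, which belong to the beta subunits encoded by *Psmb5*, *Psmb6* and *Psmb7*. The 19S cap binds ubiquitin-tagged proteins, removes the tag, and unfolds the protein with a ring of ATPases that threads it into the core. Misread, damaged and misfolded proteins are among its substrates in the liver as elsewhere, and the transcription factor NFE2L1 is known to raise proteasome subunit genes together through antioxidant response elements when proteasome capacity is short. *Rps2* encodes a protein of the decoding region of the small ribosomal subunit, and A226Y is a ribosomal ambiguity mutation that makes decoding less accurate.

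Total counts per library ranged from 23850565 to 62126131, and the deepest was mouse A226Y 23. *Rps2*, the targeted gene (chr17:24718116-24721929 in GRCm38), had 46.9 to 83.0 CPM (counts relative to the scaled library total) in A226Y mice and 103.9 to 143.1 CPM in WT mice, so that the groups did not overlap. The hepatocyte markers were abundant in every library, with summed levels of 63800 to 138000 CPM in A226Y and 80850 to 166800 CPM in WT mice. Of all genes tested with edgeR's quasi-likelihood test, 971 were higher and 939 lower in A226Y at an adjusted p under 0.05. The share of higher genes among those called was 50.8%, and it was 67.9% with scaling to library size only, 28.3% with an offset for transcript length and 29.1% with an offset for GC content. The library of mouse WT 33 had a scaling factor of 0.894, the lowest of all. Mice WT 33 and WT 21 were the lowest WT mice for 18 and 15 of the 37 members, WT 06 was the highest WT mouse for 26, and A226Y 23 was the highest of all mice for 21.

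The genes are spread over 15 chromosomes, with 8 of the 37 on chromosome 11 and 6 on chromosome 2. *Psmb1* was the only member on chromosome 17, which also holds *Rps2*. RefSeq promoter windows on GRCm38.p6, from 250 bases before to 50 bases after the start, were at hand for 31 of the 37 members, with 33 windows in all. They were searched on both strands for TGACNNNGC, the core of the antioxidant response element, which was found in 6 of the 33 windows (18.2%) and in 12.4% of all 32851 windows. These were windows of the 6 genes *Psmb5*, *Psmb6*, *Psmc6*, *Psmd9*, *Psmd12* and *Psme4*, and only *Psmd9* among them passed the test of expression described next. A match is a description of the letters, and no match says nothing of the factor. The up to 150 bases before the start are printed for *Psmd14*, *Psmd6* and *Psme3*, which rose in A226Y liver and hold no match, for *Psmd9*, which rose and holds one, and for the catalytic genes *Psmb5* and *Psmb6*, which hold one and did not pass the test. Bases that lie in an annotated exon of the gene were left out, each sequence runs 5′ to 3′ toward the gene, and capitals mark the match.
Psmd14, chr2:61711544-61711693, plus strand: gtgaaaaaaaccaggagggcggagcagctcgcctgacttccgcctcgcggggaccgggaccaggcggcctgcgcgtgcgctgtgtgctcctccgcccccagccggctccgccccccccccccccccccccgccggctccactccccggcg
Psmd6, chr14:14120985-14121095, minus strand: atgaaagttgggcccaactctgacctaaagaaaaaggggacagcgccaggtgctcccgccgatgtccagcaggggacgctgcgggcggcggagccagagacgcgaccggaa
Psme3, chr11:101316063-101316212, plus strand: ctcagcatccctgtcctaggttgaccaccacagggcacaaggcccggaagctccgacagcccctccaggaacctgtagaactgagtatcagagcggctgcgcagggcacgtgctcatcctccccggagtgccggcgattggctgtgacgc
Psmd9, chr5:123228040-123228189, plus strand: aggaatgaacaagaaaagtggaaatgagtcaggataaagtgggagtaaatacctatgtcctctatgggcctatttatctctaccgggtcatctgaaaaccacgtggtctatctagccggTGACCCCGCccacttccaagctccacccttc
Psmb5, chr14:54618023-54618145, minus strand: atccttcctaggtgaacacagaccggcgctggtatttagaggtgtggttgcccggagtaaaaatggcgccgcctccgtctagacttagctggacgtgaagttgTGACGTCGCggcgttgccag
Psmb6, chr11:70525207-70525356, plus strand: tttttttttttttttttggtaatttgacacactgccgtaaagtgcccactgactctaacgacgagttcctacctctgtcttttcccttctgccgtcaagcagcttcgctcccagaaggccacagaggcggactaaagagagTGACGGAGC

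Genes of the 19S cap made up most of the proteasome genes that were higher in A226Y liver, by between 17.9% and 31.7%, while no gene of the 20S core passed the test. At an adjusted p under 0.05, 6 of the 37 members were higher in A226Y (16.2%), against 7.27% of all tested genes, and 0 were lower, against 7.03% of all tested genes. These were the cap genes *Psmc2*, *Psmc4*, *Psmd6*, *Psmd9* and *Psmd14* (5 of 20) and *Psme3*, with 0 of 14 in the core. At an unadjusted p under 0.05 in the same edgeR fit, 16 members were higher (43.2%, against 14.9% of all tested genes): 13 of the 20 cap genes, 1 of the 14 core genes (*Psmb3*), *Psme3* and *Psme4*. In the other direction, *Psmd5* was the 1 member at an unadjusted p under 0.05, against 14.7% of all tested genes. The ranges of A226Y and WT mice overlapped for all 37 members, while every A226Y mouse was above every WT mouse for 0.352% of all tested genes. With 4 surrogate variables as covariates none of the members passed, and 50 of all genes were called. There 2 members were higher at an unadjusted p under 0.05 in edgeR, and 1989 of the 13353 genes were under it in either direction. With an offset for GC content *Psmd9* and *Psme3* stayed higher and *Psmd5* passed as lower. The count of higher members was 13 with DESeq2 and 14 with scaling to library size only, where 9.34% and 10.5% of all tested genes were higher. It was 3 without WT 14 or WT 21 (4.75% and 5.25% of all genes), 10 without WT 04 (6.87%), 14 without WT 06 (9.51%) and 11 without A226Y 29 (8.92%). With surrogate variables and the GC offset the shares of all genes were 0.217% and 3.12%.

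**Figure D1:**
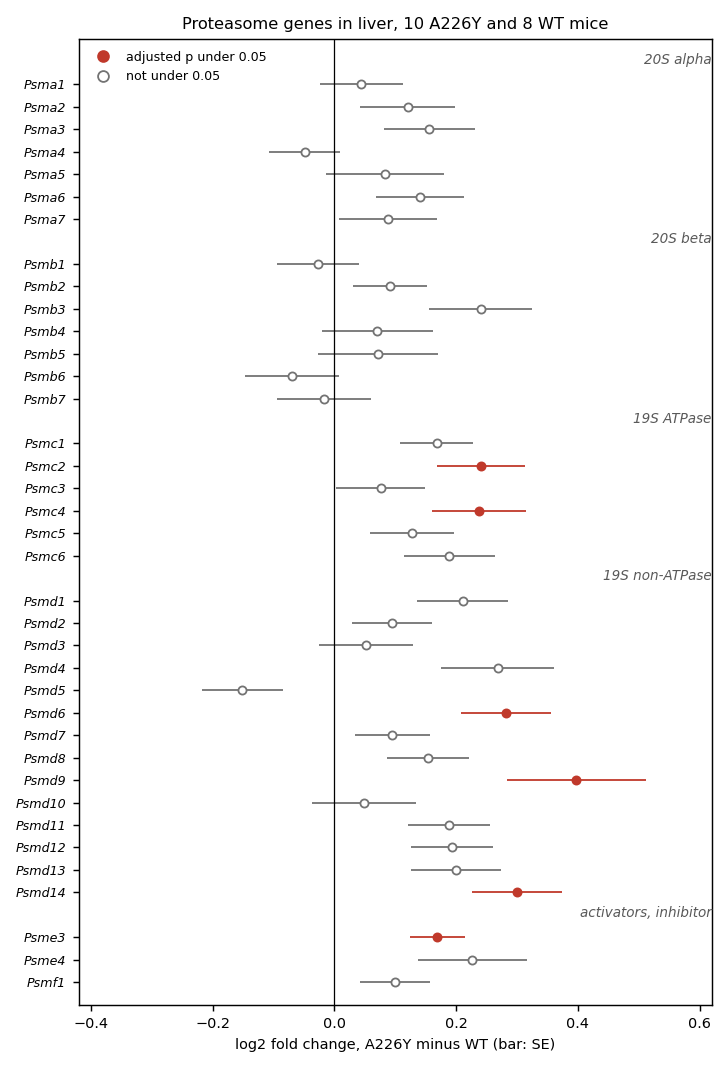
Log2 fold change of A226Y over WT for the 37 members (x axis; points with bars of 1 SE from edgeR, 10 A226Y and 8 WT mice), ordered by subcomplex. The 20 cap genes lie to the right of 0 except *Psmd5* at −0.15 (with a GC offset *Psmd10* is also below 0), and the filled points, at an adjusted p under 0.05, are 5 cap genes and *Psme3*.

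The median log2 fold change of all tested genes was −0.0044, and that of the 37 members was 0.13, with 32 of the 37 above 0, against 49.0% of all tested genes. For the cap the median was 0.19, with 19 of 20 genes above 0 (18 with a GC offset). For the core it was 0.077, with 10 of 14 above 0 (8 with a GC offset and 12 with scaling to library size only). Of all tested genes, 41% were above 0 with a GC offset and 58.1% with scaling to library size only. Within the cap the ATPases had a median of 0.18 (6 of 6 above 0) and the non-ATPase genes of 0.19 (13 of 14 above 0). Within the core the alpha genes had a median of 0.089 (6 of 7 above 0) and the beta genes of 0.071 (4 of 7 above 0). With surrogate variables 25 of the 37 were above 0 (6 of 14 in the core and 16 of 20 in the cap), against 47.7% of all tested genes. The core median was then −0.019 and the cap median 0.059, and without mouse A226Y 23 they were 0.015 and 0.17. With a length offset they were 0.1 and 0.18 (−0.042 for all tested genes), and with a GC offset 0.036 and 0.13 (−0.040). In 6 members the lowest A226Y mouse still exceeded the WT mean, namely *Psmc2*, *Psmd4*, *Psmd6*, *Psmd11*, *Psmd12* and *Psme3*, against 6.63% of all tested genes.

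The 6 ATPases form the ring that unfolds substrates and opens the core. *Psmc2* (ENSMUSG00000028932, chr5:21785283-21803787) had 87.5, 96.1 and 113.7 CPM as the lowest, median and highest A226Y mouse, and 71.2, 81.5 and 99.1 CPM in WT mice. Of the A226Y mice, 4 were above the highest WT mouse and none was below the lowest. The log2 fold change was 0.24 ± 0.072 (SE, n = 10 and 8), or 18.2%, with an adjusted p of 0.0311 by edgeR. The call was lost when A226Y 07, A226Y 32, WT 14, WT 21 or WT 33 was left out. *Psmc4* (ENSMUSG00000030603, chr7:28041707-28050101) had 77.1, 93.7 and 105.8 CPM in A226Y mice and 66.4, 74.1 and 100.1 CPM in WT mice. Only 1 A226Y mouse was above the highest WT mouse, WT 06, but 9 of 10 were above the WT mean. Its log2 fold change was 0.24 ± 0.077 with an adjusted p of 0.0451 by edgeR, which stayed under 0.05 in 6 of the 18 fits that each left out a mouse, those without A226Y 03, 11, 22 or 29 or WT 04 or 06. With surrogate variables *Psmc2* was 0.11 and *Psmc4* 0.046 (adjusted p = 0.535 and 0.832, edgeR), and with a GC offset they were 0.19 and 0.24 (adjusted p = 0.107 and 0.0640, edgeR). The other 4 ATPase genes had log2 fold changes of 0.17 (*Psmc1*), 0.076 (*Psmc3*), 0.13 (*Psmc5*) and 0.19 (*Psmc6*), with adjusted p-values from 0.0673 to 0.513 in edgeR. For *Psmc6*, 7 of the 10 A226Y mice were above the highest WT mouse, and A226Y 29 lay far below the other A226Y mice at 69.4 CPM.

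The non-ATPase genes encode the base scaffold, the ubiquitin receptors and the lid that removes ubiquitin. *Psmd14* (ENSMUSG00000026914, chr2:61711694-61800376) encodes the deubiquitinating enzyme of the lid, which cuts the ubiquitin chain off a committed substrate. It had 37.9, 47.7 and 56.5 CPM in A226Y mice and 32.98, 39.5 and 44.7 CPM in WT mice, and 7 of the 10 A226Y mice were above the highest WT mouse. *Psmd14* rose by 0.30 ± 0.074 on the log2 scale, or 23.1%, with an adjusted p of 0.0120 by edgeR, the smallest among the members. *Psmd6* (ENSMUSG00000021737, chr14:14112174-14120984), a structural subunit of the lid, had 77.7, 88.6 and 110.9 CPM in A226Y mice and 63.3, 73.9 and 89.8 CPM in WT mice. Each A226Y mouse exceeded the WT mean, and 6 of 8 WT mice were below the lowest A226Y mouse. *Psmd6* rose by 0.28 ± 0.074 on the log2 scale, with an adjusted p of 0.0162 by edgeR. *Psmd14*, *Psmd6* and *Psme3* kept an adjusted p under 0.05 in each of the 18 fits that left out a mouse. With surrogate variables *Psmd14* was 0.17 and *Psmd6* 0.098 (adjusted p = 0.376 and 0.558, edgeR), and with a GC offset they were 0.20 and 0.21 (adjusted p = 0.0987 and 0.0829, edgeR), so that both calls were lost. *Psme3* was 0.15 with surrogate variables and lost its call there (adjusted p = 0.166, edgeR).

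*Psmd4* and *Psmd12* came next by p among the cap genes and did not pass. *Psmd4* (ENSMUSG00000005625, chr3:95032694-95042614), a ubiquitin receptor of the base, had 93.4, 107.1 and 132.5 CPM in A226Y mice and 71.3, 92.5 and 115.0 CPM in WT mice. The log2 fold change was 0.27 ± 0.092 with an adjusted p of 0.0562 by edgeR, and it was under 0.05 with DESeq2, limma-voom, the likelihood ratio test, scaling to library size only and a length offset, and without A226Y 03, WT 04 or WT 06. *Psmd12* (ENSMUSG00000020720, chr11:107479484-107504362), another lid subunit, had 79.5, 86.3 and 96.0 CPM in A226Y mice and 65.5, 75.6 and 92.9 CPM in WT mice. The log2 fold change was 0.19 ± 0.067 with an adjusted p of 0.0570 by edgeR, and it was under 0.05 with DESeq2, limma-voom and scaling to library size only, and without A226Y 29, WT 04 or WT 06. Both genes had every A226Y mouse above the WT mean, with WT 06 as the highest WT mouse. The remaining structural non-ATPase genes had log2 fold changes of 0.21 (*Psmd1*), 0.095 (*Psmd2*), 0.052 (*Psmd3*), 0.095 (*Psmd7*), 0.15 (*Psmd8*), 0.19 (*Psmd11*) and 0.20 (*Psmd13*), with adjusted p-values from 0.0641 to 0.691 in edgeR. *Psmd1* and *Psmd2* encode the large scaffold proteins of the base, and *Psmd7* the partner of the deubiquitinating enzyme.

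*Psmd5*, *Psmd9* and *Psmd10* encode chaperones that help to build the ATPase ring and leave the finished particle, and they differed from each other. *Psmd9* (ENSMUSG00000029440, chr5:123169413-123250131) had the highest fold change of the 37 members, except with surrogate variables, where it was 0.068 (adjusted p = 0.786, edgeR) and that of *Psmd14* was the highest at 0.17. It had 53.7, 69.6 and 93.4 CPM in A226Y mice and 41.7, 54.6 and 72.3 CPM in WT mice. Here 3 A226Y mice were above the highest WT mouse, and 4 WT mice were below the lowest A226Y mouse. The log2 fold change was 0.40 ± 0.11, or 31.7%, with an adjusted p of 0.0257 by edgeR, which rose above 0.05 without WT 14 or WT 21. A long noncoding RNA of the opposite strand, Gm26745, overlaps 25.5% of the exon length of *Psmd9* and is not among the genes counted. Whether the counting used strand is not stated, so that the reads of these genes cannot be told apart. *Psmd5* had a log2 fold change of −0.15 ± 0.067 with an adjusted p of 0.137 by edgeR, with 27.0 to 40.7 CPM in A226Y mice and 33.6 to 43.0 CPM in WT mice, and 5 of the 10 A226Y mice were below the lowest WT mouse. *Psmd10*, at 12.6 ± 1.601 CPM (SD, n = 10) in A226Y mice and 12.2 ± 1.596 CPM (SD, n = 8) in WT mice, had a log2 fold change of 0.048. Without these chaperones 4 of 17 cap genes passed, against 7.27% of all tested genes, and the 17 had fold changes above 0, against 49.0% of all tested genes. With surrogate variables 14 of the 17 were above 0, against 47.7% of all tested genes.

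**Figure D2:**
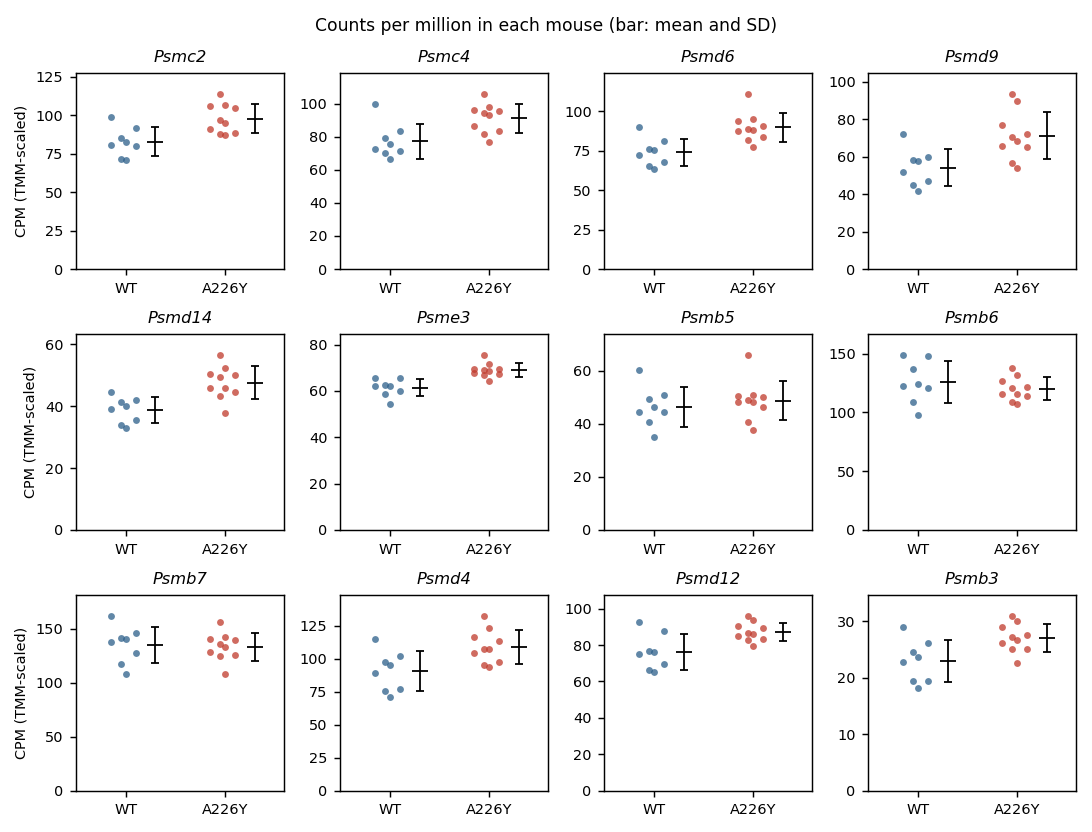
CPM of 12 members in each mouse (y axis from 0, TMM-scaled; points are mice, bars are the mean and SD of 8 WT and 10 A226Y mice). Of the 10 A226Y points, 9 of *Psme3*, 7 of *Psmd14* and 4 of *Psmd6* sit above the highest WT point, against 1 of *Psmb5* and 0 of *Psmb6* and *Psmb7*.

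The catalytic genes of the core showed no difference that passed the test. *Psmb5* (ENSMUSG00000022193, chr14:54614119-54618022), which carries the chymotrypsin-like site, had 37.8, 48.7 and 66.0 CPM in A226Y mice and 35.1, 45.4 and 60.2 CPM in WT mice. Its log2 fold change was 0.071 ± 0.099 with an adjusted p of 0.670 by edgeR. *Psmb6* (ENSMUSG00000018286, chr11:70525367-70527858), which carries the caspase-like site, had 106.8, 118.2 and 137.8 CPM in A226Y mice and 97.8, 123.0 and 148.7 CPM in WT mice. All 10 A226Y mice lay within the range of the WT mice, and the log2 fold change was −0.070 ± 0.078 with an adjusted p of 0.582 by edgeR. *Psmb7* (ENSMUSG00000026750, chr2:38588036-38644087), which carries the trypsin-like site, had 108.2, 134.6 and 156.1 CPM in A226Y mice and 107.9, 139.0 and 162.0 CPM in WT mice, again with the A226Y mice within the WT range. Its log2 fold change was −0.017 ± 0.077 with an adjusted p of 0.908 by edgeR, and it was above 0 with scaling to library size only, with a length offset, and without WT 06 or A226Y 29. The sign of *Psmb5* turned with surrogate variables. For these 3 genes the two-sided exact permutation p over the mice was 0.502, 0.440 and 0.866.

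*Psmb3* (ENSMUSG00000069744, chr11:97703399-97713500), a beta subunit without a cutting site, was the core gene with the smallest p. It had 22.6, 27.0 and 30.9 CPM in A226Y mice and 18.2, 23.2 and 29.01 CPM in WT mice. A226Y exceeded WT by 0.24 ± 0.084 on the log2 scale, at an adjusted p of 0.0600 by edgeR, which was under 0.05 with DESeq2, scaling to library size only or a length offset, and without A226Y 22, WT 04 or WT 06. The other beta genes without a cutting site, *Psmb1*, *Psmb2* and *Psmb4*, had log2 fold changes of −0.027, 0.091 and 0.071, with adjusted p-values from 0.330 to 0.828 in edgeR. The 7 alpha genes encode the outer rings, which gate the entry to the core. Their log2 fold changes were 0.044 (*Psma1*), 0.12 (*Psma2*), 0.16 (*Psma3*), −0.049 (*Psma4*), 0.083 (*Psma5*), 0.14 (*Psma6*) and 0.089 (*Psma7*), with adjusted p-values from 0.172 to 0.709 in edgeR. *Psma6* passed only when A226Y 29, its lowest A226Y mouse at 90.8 CPM, was left out.

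*Psme3* and *Psme4* encode ring- and cap-shaped activators that can bind the core in place of the 19S cap, in the nucleus among other places, and *Psmf1* encodes an inhibitor of the core. *Psme3* (ENSMUSG00000078652, chr11:101316213-101323537) had 64.2, 68.9 and 75.5 CPM in A226Y mice and 54.5, 62 and 65.8 CPM in WT mice. In 9 of the 10 A226Y mice it was above the highest WT mouse, the most for any member. The log2 fold change was smaller than those of the cap genes that passed, at 0.17 ± 0.045, or 12.4%, with an adjusted p of 0.0180 by edgeR. *Psme3* also had the smallest spread among A226Y mice, with a coefficient of variation of 4.32%, against a median of 9.81% over the members. *Psme4* had a log2 fold change of 0.23 ± 0.090 with an adjusted p of 0.0931 by edgeR, with 96.5 to 158.5 CPM in A226Y mice and 99.0 to 140.8 CPM in WT mice. *Psmf1* had a log2 fold change of 0.099 ± 0.057 with an adjusted p of 0.256 by edgeR. Over the 6 members that passed, the two-sided exact permutation p of single genes ranged from 9.14e-05 for *Psme3* to 0.00793 for *Psmc4*.

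Core and cap genes were then set side by side within each mouse, as a description with no test. The mean of log2 CPM over the 20 cap genes, relative to the WT mean, was above 0 in 10 of 10 A226Y mice, with values of 0.034 to 0.38 and a median of 0.16, and WT mice ranged from −0.19 to 0.22. Only 3 A226Y mice (A226Y 05, A226Y 07 and A226Y 23) were above the highest WT mouse, WT 06. Over the 14 core genes the mean was above 0 in 6 of 10 A226Y mice, with values of −0.12 to 0.26 and a median of 0.046, against −0.23 to 0.20 in WT mice. Both means were high in WT 06 (0.20 for the core and 0.22 for the cap) and A226Y 23 (0.26 and 0.38), and both were low in WT 33 (−0.23 and −0.19). The difference of cap minus core was 0.032 to 0.22 in A226Y mice and −0.036 to 0.039 in WT mice, and 7 of the 10 A226Y mice were above the highest WT mouse. A226Y 29 had the highest difference, with cap genes at 0.099 and core genes at −0.12.

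**Figure D3:**
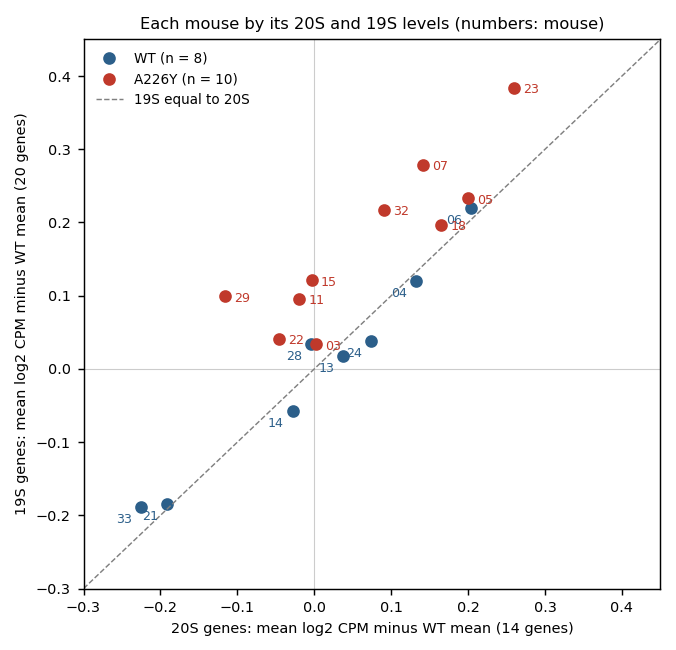
Each mouse by the mean log2 CPM of its 14 core genes (x axis) and 20 cap genes (y axis), both relative to the WT mean. The WT mice lie along the dashed line of equal shifts, from −0.23 to 0.20 on the x axis, and the A226Y mice lie above it by 0.032 to 0.22.

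The levels themselves were compared per kb of the principal transcript. In WT mice the core genes ranged from 6.92 CPM per kb (*Psma5*) to 157.7 CPM per kb (*Psmb6*), a 22.8-fold range, although each is present in equal number in the finished core. Whether such differences between genes lie in the RNA or in how reads were counted was not tested. The cap genes, leaving out the 3 chaperones, ranged over 3.51-fold, from 22.8 (*Psmd11*) to 80.1 CPM per kb (*Psmd8*), and the 6 ATPases over 1.89-fold, from 36.8 (*Psmc6*) to 69.6 CPM per kb (*Psmc3*). The median level was 66.2 CPM per kb for the core and 46.4 CPM per kb for the cap without the chaperones. *Psma2* and *Psma3* stood low at 21.2 and 7.52 CPM per kb, and their principal transcripts in the annotation are long, at 2911 and 2846 bases. The ratio of the mean cap level to the mean core level per kb, over all 34 genes, was 0.592 to 0.687 in A226Y mice and 0.546 to 0.591 in WT mice, so that the groups did not overlap. With no length scaling the ratio was 0.976 to 1.13 against 0.909 to 0.970, and with merged exon lengths 9 of the 10 A226Y mice were above the highest WT mouse. These ratios are descriptions with no test, chosen after the values of the members were seen.

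**Figure D4:**
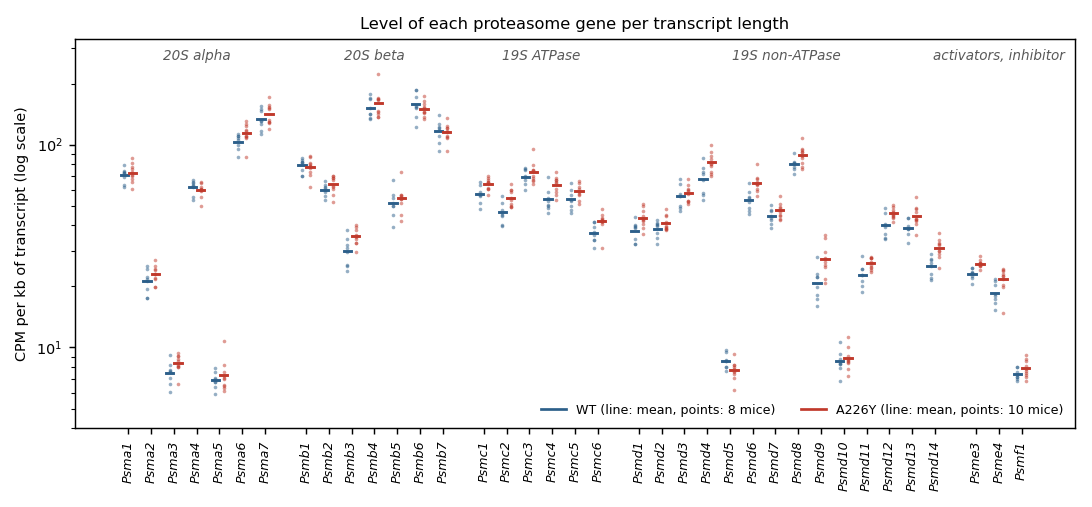
Level of each member in CPM per kb of transcript (y axis, log scale; points are mice, lines are group means). The core genes spread over a 22.8-fold range in WT mice and the ATPases over a 1.89-fold range, and the shifts between A226Y and WT are small beside the differences between genes.

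Of 45 further genes of the pathway, 44 were in the table and 43 were tested. The dedicated chaperones that assemble the core (*Psmg1* to *Psmg4* and *Pomp*) had log2 fold changes of −0.14 to −0.021, and 0 of 5 passed. The SEs were 0.085 to 0.11, and with a mouse left out *Psmg1* reached 0.015 and *Psmg2* 0.014. Among the proteins that ride on the proteasome, 3 of 9 were higher, against 7.27% of all tested genes. *Ublcp1*, a phosphatase of the nuclear proteasome, had 13.6 to 18.4 CPM in A226Y mice and 9.25 to 13.5 CPM in WT mice, with no overlap, and rose by 0.33 ± 0.074 on the log2 scale (adjusted p = 0.00698, edgeR). *Ube3c*, a ubiquitin ligase of the cap, rose by 0.16 (adjusted p = 0.0258, edgeR), and *Txnl1*, a thioredoxin-like protein bound to the lid, by 0.18 (adjusted p = 0.0434, edgeR). *Txnl1* passed in 7 of the 18 fits that left out a mouse, and *Ube3c* in all but the fit without WT 14. Both calls were lost with a length offset, where the log2 fold changes were 0.067 for *Ube3c* and 0.12 for *Txnl1* (adjusted p = 0.412 and 0.258, edgeR), and with a GC offset, where they were 0.084 and 0.043 (adjusted p = 0.272 and 0.715, edgeR). *Ublcp1* passed with either offset, but with surrogate variables it was 0.16, *Ube3c* 0.13 and *Txnl1* 0.074 (adjusted p = 0.417, 0.332 and 0.624, edgeR).

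Of the shuttle factors and p97 partners, which bring ubiquitin-tagged proteins to the cap, 4 of 9 were higher, against the same 7.27%. *Rad23b* rose by 0.23 and *Ubqln1* by 0.19 on the log2 scale (adjusted p = 0.0155 and 0.0161, edgeR), both shuttles with a ubiquitin-like domain. *Ufd1* rose by 0.30 and *Nploc4* by 0.22 (adjusted p = 0.0220 for each, edgeR), the partners that form the substrate adaptor of p97. With a length offset *Rad23b* (0.18), *Ubqln1* (0.15) and *Nploc4* (0.17) no longer passed (adjusted p = 0.103, 0.103 and 0.0932, edgeR). With a GC offset *Rad23b* (0.15), *Ubqln1* (0.13) and *Ufd1* (0.23) no longer passed (adjusted p = 0.149, 0.131 and 0.0896, edgeR). With surrogate variables none of the 4 passed, with *Ufd1* at 0.077, *Nploc4* at 0.095, *Rad23b* at 0.13 and *Ubqln1* at 0.12 (adjusted p = 0.731, 0.486, 0.338 and 0.336, edgeR). *Vcp*, which encodes p97 itself, had a log2 fold change of 0.087 (adjusted p = 0.390, edgeR). Of the 8 regulators, 1 passed as higher, against 7.27% of all tested genes: *Ddi2*, the protease that activates NFE2L1, had 280.4 to 364.9 CPM in A226Y mice and 264.3 to 290.6 CPM in WT mice, with 9 of 10 A226Y mice above the highest WT mouse and a log2 fold change of 0.19 (adjusted p = 0.0245, edgeR). The log2 fold change of *Ddi2* was 0.0047 with a length offset and 0.13 with a GC offset (adjusted p = 0.973 and 0.164, edgeR), and 0.14 with surrogate variables (adjusted p = 0.330, edgeR), so that the call was lost with each. *Ddi2* shares 18.3% of its exon length with *Rsc1a1*, a counted gene of the same strand. *Nfe2l1* itself had a log2 fold change of −0.16 ± 0.070 (adjusted p = 0.128, edgeR), with 118.5 to 142.6 CPM in A226Y mice and 126.7 to 172.9 CPM in WT mice, and passed as lower with a length offset (−0.24, adjusted p = 0.0483, edgeR). Genes of ubiquitin and its activating enzymes had 0 of 6 called, with log2 fold changes of −0.070 to 0.21.

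**Figure D5:**
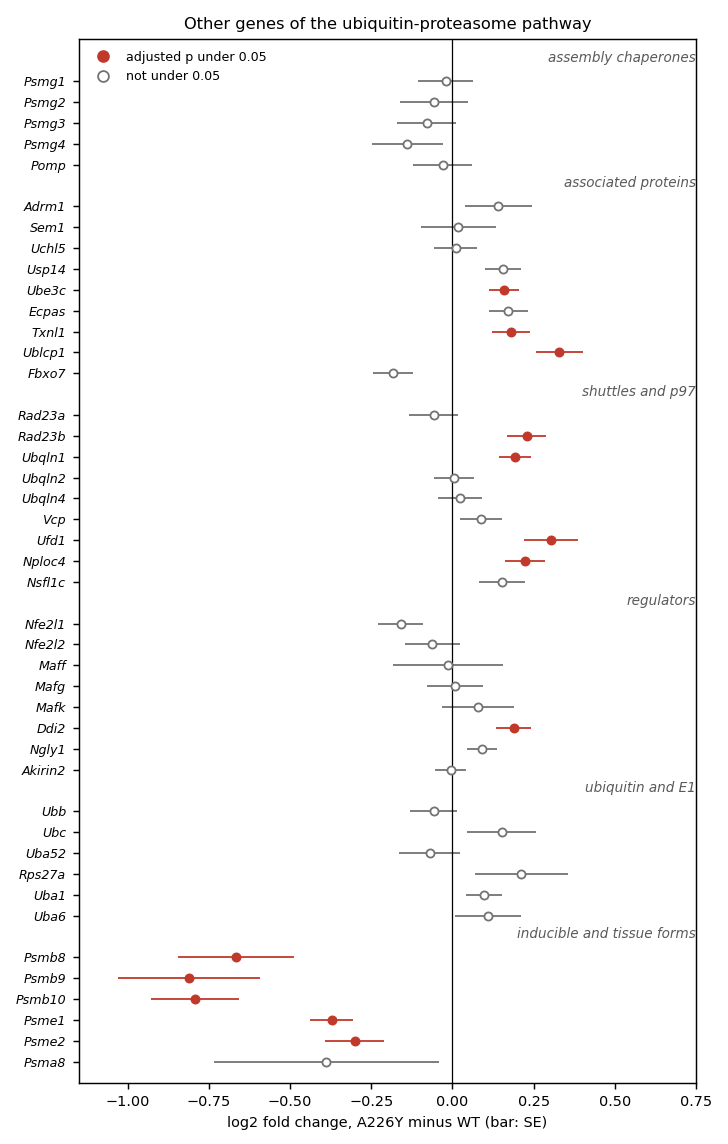
Log2 fold change of A226Y over WT (x axis; bars of 1 SE from edgeR) for 43 other genes of the pathway by role. Filled points at an adjusted p under 0.05 are 8 genes to the right of 0, among them *Ublcp1* at 0.33 and *Ufd1* at 0.30, and the 5 inducible forms to the left.

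The inducible forms, of immune cells and of the interferon response, went the other way. *Psmb8*, *Psmb9*, *Psmb10*, *Psme1* and *Psme2* (5 of 5) were lower, against 7.03% of all tested genes. *Psmb8*, *Psmb9* and *Psmb10* take the places of *Psmb5*, *Psmb6* and *Psmb7*, and had log2 fold changes of −0.67, −0.81 and −0.79 (adjusted p = 0.0177, 0.0183 and 0.00200, edgeR). With surrogate variables these were −0.23, −0.094 and −0.32, and none passed (adjusted p = 0.322, 0.849 and 0.196, edgeR). For *Psmb8*, 3 A226Y mice were below the lowest WT mouse, and the ranges were 15.7 to 37.3 CPM in A226Y and 19.1 to 51.6 CPM in WT mice. The inducible activator genes *Psme1* and *Psme2* had log2 fold changes of −0.37 and −0.30 (adjusted p = 0.00234 and 0.0333, edgeR), and *Psme2* passed in 10 of the 18 fits that left out a mouse and not with scaling to library size only, a length offset or a GC offset. With surrogate variables *Psme1* was −0.21 and *Psme2* −0.036 (adjusted p = 0.142 and 0.886, edgeR). *Psma8*, a testis form, had 0.12 to 1.67 CPM in A226Y and 0.52 to 1.88 CPM in WT mice, and *Psmb11*, a thymus form, was listed at 0 in every mouse. Macrophage and lymphocyte markers were measured beside these genes. The 6 Kupffer cell markers summed to 220.8 to 919.7 CPM in A226Y mice (median 302.8) and 331.3 to 673.2 CPM in WT mice (median 491.2), with 1 of the 6 (*Clec4f*) lower at an adjusted p under 0.05 in edgeR, against 7.03% of all tested genes. The 9 lymphocyte markers summed to 23.5 to 60.8 CPM (median 29.8) and 23.6 to 128.3 CPM (median 27.0), with 0 of 9 called and log2 fold changes of −1.02 to −0.12. No marker of these lists was at 0 in any mouse, and the part of such cells in the levels of the inducible or the constitutive genes was not tested. Of the remaining markers, 0 of 6 endothelial and 0 of 5 cholangiocyte genes passed, 2 of 6 stellate genes (*Col1a1*, *Col3a1*) were lower, against the same 7.03%, and among 5 hepatocyte genes *Cps1* was higher and *Serpina1c* lower in edgeR.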

How the data were processed

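Liver RNA of 10 A226Y and 8 WT mice was sequenced, and the authors deposited unnormalized whole-number counts per Ensembl gene for each mouse. The methods describe quantification with RSEM against an Ensembl annotation, whereas the submitters' processing notes list bcl2fastq, fastp, STAR, featureCounts, MultiQC and GRCm38, so which tool made the counts is not settled, nor is strandedness. Symbols and positions came from GENCODE M21 (GRCm38), which named 22291 of 22524 identifiers. Levels per kb used the longest principal transcript, and promoters came from a RefSeq table of GRCm38.p6.

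A gene was tested if 50% or more of either genotype's mice had 10 or more counts, using edgeR 4.0.16 (R 4.3.3; TMM scaling, quasi-likelihood test, no covariates, Benjamini-Hochberg adjustment over 13353 genes, threshold 0.05). CPM are TMM-scaled, and the permutation test enumerated all 43758 divisions of the mice on log2 CPM (prior count 2). The fit was tested on simulated data. Genes described by mouse were the members called, the 3 catalytic genes, and those with the next smallest p up to 12 in all; of other pathway genes, those called, *Nfe2l1* and the inducible forms. The members and lists were chosen with earlier results of these data known. Alternatives covered scaling, filters, tests (DESeq2 1.42.0, limma-voom 3.58.1), surrogate variables (sva 3.50.0), length and GC offsets, and each mouse left out. Labels give each mouse its own number, so p-values measure the spread between mice, which includes counting error, and each member had 214 or more counts in every mouse.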

Additional observations from a re-analysis of the deposited data

Results flagged for a closer look

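Of 76 groups tested (the 37 members and *Rps2* in both genotypes), 9 had a mouse set apart from the other mice of its genotype. The gap was larger than the range of the rest allows in Dixon's test, which chance gives for about 1 in 20 single groups. The groups share the same mice, so this rate does not apply to the count of 9. All 9 were A226Y groups, and they came from a pair of mice. Mouse A226Y 29 was low for 4 genes: *Psma3* at 18.7 CPM (others 22.8 to 26.7), *Psma6* at 90.8 CPM (others 112 to 136), *Psmc6* at 69.4 CPM (others 90.3 to 108) and *Psme4* at 96.5 CPM (others 129 to 158). Mouse A226Y 23, the library with the most counts, was high for 5 genes: *Psma5* at 13.3 CPM (others 7.56 to 10.1), *Psmb4* at 264 CPM (others 161 to 200), *Psmb5* at 66.0 CPM (others 37.8 to 50.9), *Psmc3* at 155 CPM (others 104 to 130) and *Psmd6* at 111 CPM (others 77.7 to 95.2). Without A226Y 23, *Psmd6* still passed, and without A226Y 29, *Psma6*, *Psmc6* and *Psme4* passed as higher.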

How the results depend on the processing

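The 6 members called higher were also 6 with RLE size factors, upper quartile scaling, a filter of 10 counts in every mouse and the robust fit, and 5 with no filter, 7 with the likelihood ratio test, 8 with limma-voom and 9 with a length offset, where 4.46%, 7.65%, 7.14% and 2.88% of all genes were higher. They were 14 with library size only, 13 with DESeq2, 0 with surrogate variables (50 of all genes called, against 1910) and 2 with a GC offset, which also called 1 member lower. Leaving out each mouse in turn gave 3 to 14 members higher, 0 lower, and 1255 to 2560 of all genes called (1255 without WT 14); core medians were 0.015 to 0.11 and cap medians 0.16 to 0.22. *Psmb7* changed sign with library size only (0.021, exact permutation p = 0.728), with a length offset (0.013), without WT 06 (0.025) and without A226Y 29 (0.013), over −0.058 to 0.025 with a mouse left out, and *Psmb5* with surrogate variables (−0.079). Of the other members, *Psmb1* turned with library size only and without A226Y 29, *Psma1*, *Psma2* and *Psmd10* with a GC offset, and *Psma1*, *Psma7*, *Psmb4*, *Psmc3*, *Psmc5* and *Psmd3* with surrogate variables. Among the pathway genes called, to which the alternatives were applied after their values were seen, none of the 13 calls held with surrogate variables. *Ube3c*, *Txnl1*, *Rad23b*, *Ubqln1*, *Ddi2* and *Psme2* also lost theirs with the length and GC offsets, *Nploc4* with the length and *Ufd1* with the GC offset. *Txnl1* lost its call with no filter and the likelihood ratio test, and *Psme2* with library size only, while *Nfe2l1* passed as lower with the length offset. No sign of these 13 turned. The cause of these changes was not tested. No paired analysis was possible because the groups share no animal numbers. The lowest count of a member in any mouse was 214, for *Psma5*, where counting error is a sizeable part of the spread between mice.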
